A study of Mus musculus with 12 samples.

Results

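RNA of BV2 cells that had gone through oxygen-glucose deprivation (OGD) and received acacetin was compared with RNA of untreated BV2 cells. The question was what remains altered in cells that had both the injury and the drug. The comparison takes the 4 libraries titled Acacetin and the 4 titled Control, 8 of the 12 libraries of the series, and all genes of the deposited count table. The other 4 libraries, titled OGD, enter the fit as a further group and are given beside some of the results. BV2 is an immortalised mouse microglial cell line, so every library comes from 1 line. The Control cells carry the treatment label Control and no further agent. The Acacetin cells carry the treatment label Acacetin. The series' design text states that the OGD and re-oxygenation model was set up first and that acacetin was then given at 10 µM, while the label of these libraries does not itself name OGD. No duration is given, and no library had acacetin without OGD. Effects of OGD, re-oxygenation and acacetin therefore cannot be told apart in this comparison. Nothing in the labels ties the 4 libraries of a group to different cultures, so the p-values measure the spread between these libraries, which may be technical.

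Microglia are the resident macrophages of the brain. They take up debris, present antigen and release cytokines, chemokines and nitric oxide when they sense damage. OGD removes oxygen and glucose from cultured cells and serves as a model of ischaemia, and the return of both stands in for reperfusion. Cells short of oxygen stabilise HIF transcription factors, which switch on genes of glycolysis and pH control. Cells short of nutrients or with unfolded proteins phosphorylate eIF2α, which raises the translation of ATF4, and they expand the chaperone stock of the endoplasmic reticulum (ER). Acacetin is a methylated flavone found in plants and is studied for anti-inflammatory effects.

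The 8 libraries held 24734868 to 32693066 counted reads each, and the count table of the series lists 24934 genes. Control and Acacetin libraries differed in 2 further properties. Mitochondrially encoded genes took 0.377% to 0.514% of reads in Control and 0.667% to 1.27% in Acacetin, with no overlap. Gene length was a relative value worked out from the deposited read counts and FPKM values, not taken from an annotation. The dependence of a library's levels on gene length was expressed as the slope of each gene's log2 deviation from its mean over the 12 libraries on log2 gene length. That slope ran from -0.097 to 0.063 in Control but from -0.216 in Acacetin 1 to 0.303 in Acacetin 3. Long transcripts were thus relatively low in Acacetin 1 and high in Acacetin 3, and these 2 libraries stand apart from the rest, which touches several results below. The 18S ribosomal RNA (Rn18s) took 13.1% of reads in OGD 2 and 21.3% in OGD 3, against 0.137% to 1.86% in the other 10 libraries of the series. The part of these properties in the gene results was tested only by removing the length trend and by leaving libraries out. As all libraries are bulk RNA, fewer cells expressing a gene and less of its RNA per cell cannot be told apart.

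**Figure D1:**
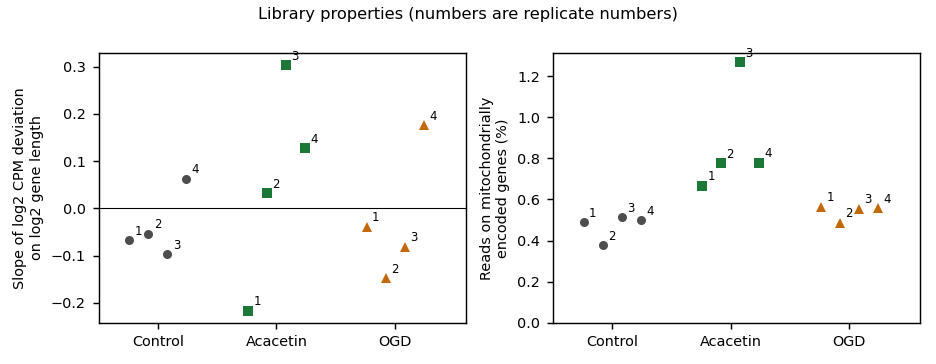
Library properties by group. The left panel plots the slope of log2 CPM deviation on log2 gene length and the right panel the percentage of reads on mitochondrially encoded genes, each point 1 library labelled with its replicate number. Acacetin 1 (-0.216) and Acacetin 3 (0.303) lie at the 2 ends of the slope, and the 4 Acacetin libraries (0.667% to 1.27%) lie above the 4 Control libraries (0.377% to 0.514%) in mitochondrial share.

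Of 13249 genes tested with edgeR's quasi-likelihood test, 3559 (26.9%) differed between Acacetin and Control at a Benjamini-Hochberg adjusted p under 0.05. Of these, 1850 (14%) were higher in Acacetin and 1709 (12.9%) were lower. A change of at least 2-fold was reached by 676 of the higher genes (5.10%) and by 765 of the lower genes (5.77%). The 4 Acacetin libraries did not overlap the 4 Control libraries for 3401 genes (25.7%). The median log2 fold change of all tested genes was 0.08, and the central 90% of genes, between the 5th and 95th percentiles, lay between -1.11 and 1.24. Protein-coding genes were called at 28.2% (3236 of 11479), and lncRNA genes at 23.7% (246 of 1039). The count depended most on Acacetin 1: without that library 3030 genes were higher and 2788 lower, 5818 in all. Without Control 2, 1164 genes were higher. With limma on log2(FPKM + 1), 1063 genes were lower. In the same fit 3813 genes (28.8%) differed between OGD and Control. No gene was called between Acacetin and OGD by edgeR at the same threshold (0 of 13249; 685 at an unadjusted p under 0.05), and DESeq2 called 37. The comparisons of Acacetin and of OGD with Control share the 4 Control libraries, so no overlap between them is counted. OGD values are given for some genes and not for the lists.

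**Figure D2:**
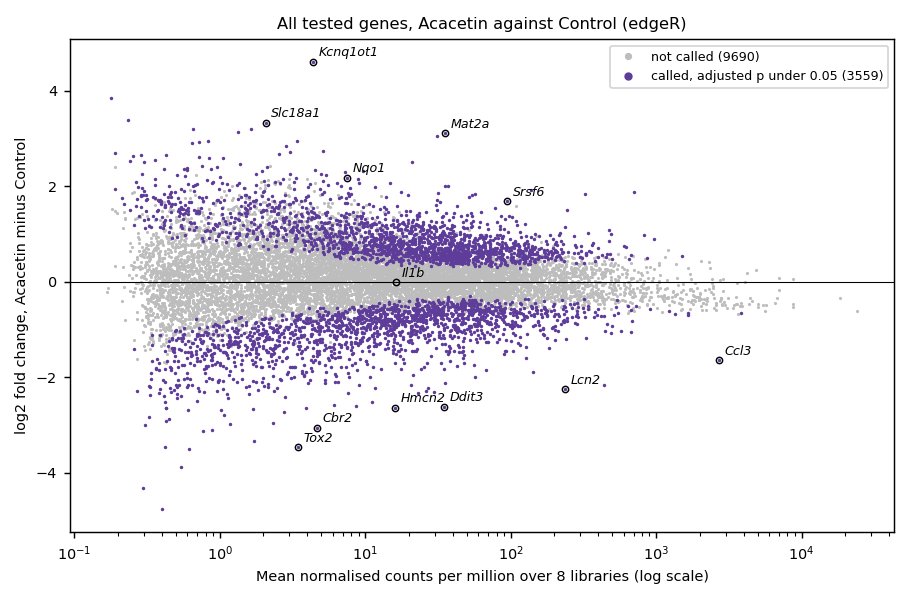
Log2 fold change of Acacetin against Control for each of the 13249 tested genes (y axis) against its mean normalised CPM over the 8 libraries (x axis, log scale). Each point is 1 gene; 3559 called genes are purple and 9690 others grey. Mat2a (3.10) and Ccl3 (-1.64) lie far from 0 at moderate and high levels, and Il1b (-0.01) lies on the zero line.

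Below, levels are CPM, the read count scaled to a common library total after TMM normalisation, listed for libraries 1 to 4 of a group or as the mean ± SD (n = 4). Levels are not divided by gene length and are compared only within a gene. A fold change is log2 of Acacetin over Control with its standard error (SE). "Rose" and "fell" are used for genes called at an adjusted p under 0.05. Where leaving out 1 library moved a list's count by more than 1.5 times, the count without that library is given.

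Called genes were ranked by fold change where they averaged 2 CPM or more and the groups did not overlap. The 8 largest rises began with Slc18a1, Mat2a and Ppp1r10. Slc18a1 (chromosome 8), a vesicular monoamine transporter, was low in untreated cells, at 0.491, 0.332, 0.516 and 0.166 CPM in Control and 3.94, 5.50, 2.995 and 2.68 CPM in Acacetin (log2 fold change 3.33, SE 0.40, adjusted p = 0.000196). Mat2a (chromosome 6) makes S-adenosylmethionine, the methyl donor of the cell. It stood at 8.19, 4.98, 12.2 and 4.11 CPM in Control and 30.4, 65.4, 80.9 and 75.9 CPM in Acacetin (log2 fold change 3.10, SE 0.37, adjusted p = 0.000196), which is 8.596-fold. Acacetin 1 was the lowest Acacetin library for Mat2a, and the OGD libraries held 65.6 ± 19.6 CPM. Ppp1r10, a nuclear targeting subunit of protein phosphatase 1 (chromosome 17), was at 9.70, 3.82, 9.16 and 2.75 CPM in Control and 33.3, 42.0, 35.7 and 32.7 CPM in Acacetin (log2 fold change 2.502, SE 0.33, adjusted p = 0.000310). Slc24a5, a cation exchanger of intracellular membranes known from pigment cells (chromosome 2), was at 15.1, 14.3, 17.2 and 12.7 CPM in Control and 52.6, 79.0, 57.2 and 48.7 CPM in Acacetin (log2 fold change 2.004, SE 0.21, adjusted p = 9.55e-05). Both genes had an OGD mean above the Acacetin mean, 49.2 ± 9.003 CPM for Ppp1r10 and 75.8 ± 21.8 CPM for Slc24a5. Nqo1 (chromosome 8) reduces quinones and is a classic target of the antioxidant factor NRF2. Its levels of 2.66, 3.07, 2.54 and 2.65 CPM in Control and 12.1, 19.1, 9.18 and 9.02 CPM in Acacetin (log2 fold change 2.18, SE 0.30, adjusted p = 0.000456) were tight in Control and highest in Acacetin 2, and OGD held 8.39 ± 3.23 CPM.

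The other 3 genes of the 8 were highest in Acacetin 3, the library with relatively high levels of long transcripts. Tlr7 (chromosome X), an endosomal receptor for single-stranded RNA, was at 1.801, 2.07, 2.10 and 0.962 CPM in Control and 2.14, 6.20, 18.1 and 6.59 CPM in Acacetin (log2 fold change 2.26, SE 0.54, adjusted p = 0.00762). Its fold change was 1.53 without Acacetin 3 (adjusted p = 0.0171), and the call was lost with limma on log2(FPKM + 1) (adjusted p = 0.0501). Ppp4r3a, a regulatory subunit of protein phosphatase 4 (chromosome 12), was at 3.40, 2.82, 3.81 and 3.98 CPM in Control and 4.42, 10.7, 31.5 and 12.1 CPM in Acacetin (log2 fold change 2.07, SE 0.49, adjusted p = 0.00737), with 1.37 without Acacetin 3 (adjusted p = 0.0158). Its call was lost with limma on log2(FPKM + 1) (adjusted p = 0.0740). Dido1, a chromatin-associated protein named for its induction in dying cells (chromosome 2), was at 2.01, 1.99, 1.55 and 2.16 CPM in Control and 3.75, 6.32, 14.8 and 8.53 CPM in Acacetin (log2 fold change 2.12, SE 0.37, adjusted p = 0.00138). In all 3 genes Acacetin 1 was the lowest Acacetin library and lay just above the highest Control library in Tlr7 and Ppp4r3a. On the log2(FPKM + 1) scale, which shrinks changes of low genes, the rises were 0.64 for Slc18a1, 0.69 for Ppp4r3a, 0.50 for Dido1, 0.99 for Tlr7 and 1.88 for Ppp1r10. On log2(FPKM + 0.1) they were 2.23 for Slc18a1 and 1.53 for Dido1.

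The 8 largest falls came from genes of moderate or low level. Ddit3 (chromosome 10), which encodes CHOP, a transcription factor of the stress response that favours cell death, was at 40.6, 67.1, 41.4 and 91.8 CPM in Control and 12.3, 11.1, 7.72 and 8.31 CPM in Acacetin (log2 fold change -2.61, SE 0.28, adjusted p = 0.000133). For Ddit3, OGD held 16.2 ± 4.20 CPM. Hmcn2, an extracellular matrix hemicentin (chromosome 2), was at 28.8, 26.5, 21.5 and 33.6 CPM in Control and 7.31, 3.76, 3.02 and 3.88 CPM in Acacetin (log2 fold change -2.63, SE 0.26, adjusted p = 7.27e-05). Haao, an enzyme of the kynurenine branch of tryptophan breakdown (chromosome 17), was at 15.5, 15.2, 11.7 and 17.1 CPM in Control and 3.99, 1.43, 1.73 and 2.81 CPM in Acacetin (log2 fold change -2.59, SE 0.32, adjusted p = 0.000209). For both genes OGD was close to the Acacetin mean, with 4.997 ± 0.758 CPM for Hmcn2 and 3.16 ± 0.883 CPM for Haao. Tox2, an HMG-box transcription factor (chromosome 2), was at 6.18, 7.67, 3.69 and 7.76 CPM in Control and 0.760, 0.437, 0.440 and 0.679 CPM in Acacetin (log2 fold change -3.46, SE 0.38, adjusted p = 0.000133), the steepest fall of the 8. Cbr2, a carbonyl reductase (chromosome 11), was at 10.4, 7.47, 7.46 and 8.06 CPM in Control and 1.23, 1.397, 0.440 and 0.969 CPM in Acacetin (log2 fold change -3.05, SE 0.33, adjusted p = 0.000133). Ecel1, a neutral metallopeptidase (chromosome 1), was at 7.29, 6.97, 5.67 and 6.87 CPM in Control and 1.85, 0.524, 0.577 and 1.42 CPM in Acacetin (log2 fold change -2.64, SE 0.45, adjusted p = 0.00115). Pdlim4, an actin-associated PDZ and LIM domain protein, fell by 2.95 on the log2 scale (adjusted p = 0.000354), and Zfp13, a zinc finger protein, fell by 2.72 (adjusted p = 0.000756). On the log2(FPKM + 1) scale the falls were -1.14 for Tox2, -1.91 for Cbr2, -0.98 for Pdlim4, -1.01 for Zfp13, -1.04 for Ecel1, -0.97 for Hmcn2 and -1.32 for Haao. On log2(FPKM + 0.1) they were -2.67 for Tox2 and -2.31 for Pdlim4.

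**Figure D3:**
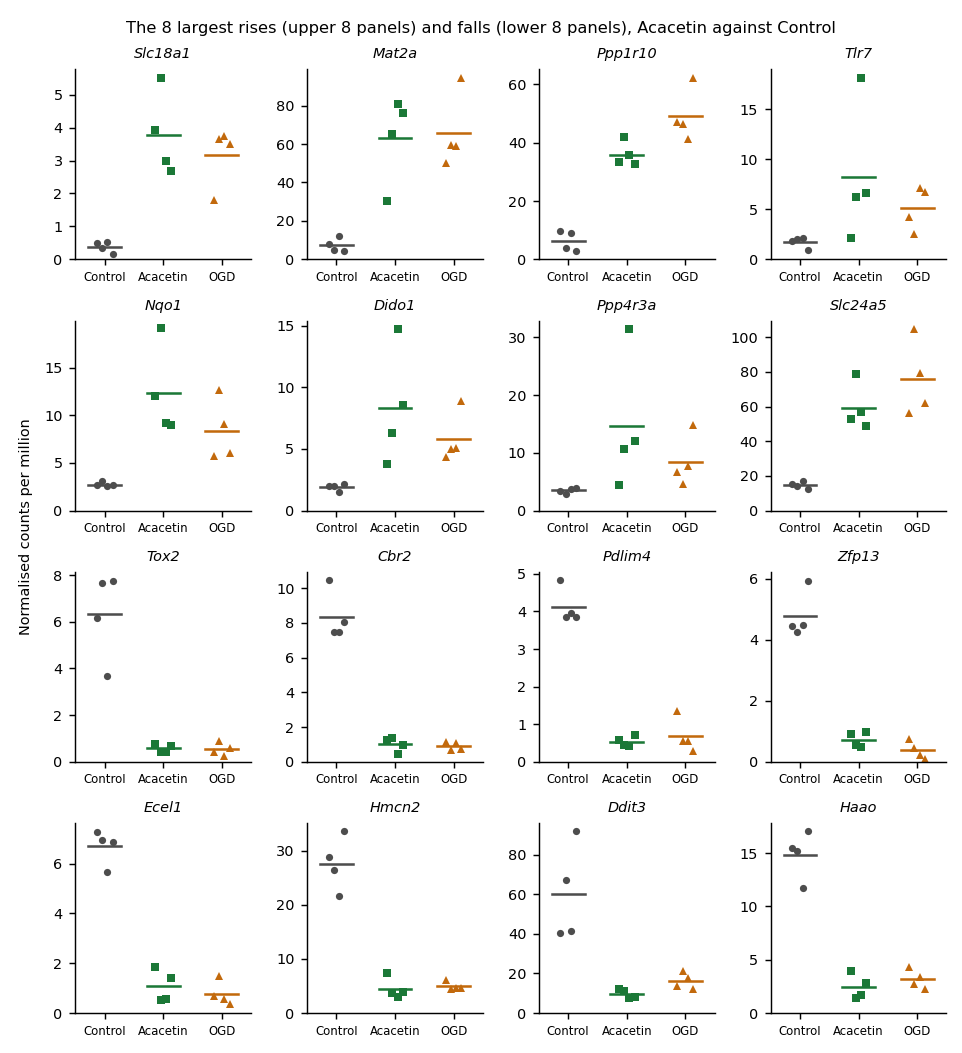
Normalised CPM (y axes, linear from 0) of the 8 largest rises and 8 largest falls in Control (circles), Acacetin (squares) and OGD (triangles); each point is 1 library and each line a group mean. Only genes whose groups did not overlap were ranked, so in every panel the Acacetin points lie on 1 side of the Control points. For Mat2a the mean is 7.36 CPM in Control and 63.1 CPM in Acacetin.

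The larger groups of genes were read against the background shares of 14% higher and 12.9% lower. Several lists had a total share called near the 26.9% of all tested genes and did not stand out by that share. Among them were clock genes (26.3%), NF-κB subunits and inhibitors (26.7%) and death genes (27.8%). Hypoxia genes, cytokine receptors and glycolysis genes (28.6% each) and lysosome genes (28.9%) were others. Lists with a total share below that of all tested genes included proteasome, pause-release, Mediator and mitosis genes. RNA splicing regulators had more rises than falls. SR proteins bind exons and guide splice site choice, and CLK and SRPK kinases phosphorylate them: 10 of 21 tested members rose and 2 fell (median log2 fold change 0.91). Srsf6, a splicing regulator of this family, was at 51.7, 41.9, 52.0 and 34.3 CPM in Control and 126, 160.2, 143 and 147 CPM in Acacetin (log2 fold change 1.68, SE 0.15, adjusted p = 5.59e-05), and the OGD mean was 159 ± 12.5 CPM. Srsf3 was at 47.1, 52.1, 69.3 and 42.5 CPM in Control and 102, 140.2, 144 and 136 CPM in Acacetin (log2 fold change 1.31, SE 0.17, adjusted p = 0.000325). Srsf2 was at 115, 97.5, 119 and 98.1 CPM in Control and 194, 234, 196 and 210.0 CPM in Acacetin (log2 fold change 0.95, SE 0.12, adjusted p = 0.000310). In all 3 genes the 4 Acacetin libraries lay above the 4 Control libraries. Srsf5 rose as well (32.9 ± 4.46 CPM in Control and 73.4 ± 19.9 CPM in Acacetin, log2 fold change 1.16, SE 0.18, adjusted p = 0.000757). Of hnRNP and core spliceosome genes, 14 of 43 tested members rose and 1 fell (median log2 fold change 0.50). Spliceosome rises numbered 8 without Control 1, Acacetin 2 or Acacetin 4, 7 without Control 2 and 23 without Acacetin 1. Hnrnpm, a splicing repressor, was at 25.9, 20.2, 31.1 and 23.98 CPM in Control and 34.95, 61.2, 88.2 and 78.5 CPM in Acacetin (log2 fold change 1.38, SE 0.25, adjusted p = 0.00170), lowest in Acacetin 1 and highest in Acacetin 3. Hnrnpf rose with less spread (78.4 ± 10.03 CPM in Control and 124 ± 13.1 CPM in Acacetin, log2 fold change 0.67, SE 0.13, adjusted p = 0.00304). Cirbp, the cold-inducible RNA-binding protein, was the fallen member (15.3 ± 1.11 CPM in Control and 8.48 ± 1.70 CPM in Acacetin, log2 fold change -0.86, SE 0.18, adjusted p = 0.00356).

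Transcription elongation and the methyl donor cycle were examined next. Of genes for release of paused RNA polymerase II, 4 of 25 tested members rose and 1 fell (median log2 fold change 0.35). Pause-release rises numbered 2 without Control 1, Control 2 or Control 3 and 11 without Acacetin 1, and falls numbered 0 without Control 1, Control 2, Control 4, Acacetin 2, Acacetin 3 or Acacetin 4 and 2 without Acacetin 1. Hexim1, which holds the elongation kinase P-TEFb inactive in the 7SK complex, was at 15.8, 16.5, 18.8 and 13.8 CPM in Control and 46.9, 56.9, 40.1 and 39.1 CPM in Acacetin (log2 fold change 1.497, SE 0.14, adjusted p = 7.27e-05), with no overlap between the groups. OGD held 69.4 ± 3.09 CPM, the highest of the 3 groups. Mepce, which caps 7SK RNA, rose too (31.5 ± 4.43 CPM in Control and 50.9 ± 6.97 CPM in Acacetin, log2 fold change 0.69, SE 0.14, adjusted p = 0.00259). Of Mediator subunits, which link activators to the polymerase, 6 of 32 tested members rose and 0 fell (median log2 fold change 0.19) (edgeR; for falls, 2 at an unadjusted p under 0.05 and 2 by DESeq2). Mediator rises numbered 3 without Control 1 or Acacetin 2 and 10 without Acacetin 1, and falls numbered 3 without Acacetin 1. Med22 was at 18.4, 19.9, 20.4 and 16.7 CPM in Control and 41.1, 49.1, 36.8 and 40.2 CPM in Acacetin (log2 fold change 1.15, SE 0.12, adjusted p = 0.000107), and Med20 rose as well (33.03 ± 3.70 CPM in Control and 64.2 ± 14.9 CPM in Acacetin, log2 fold change 0.96, SE 0.17, adjusted p = 0.00129). In the methionine cycle and its folate supply, 6 of 15 tested members rose and 0 fell (median log2 fold change 0.37) (edgeR; for falls, 0 at an unadjusted p under 0.05 and 0 by DESeq2). Methionine-cycle rises numbered 3 without Control 2 or Acacetin 2. Besides Mat2a, these held Mettl16, the RNA methyltransferase that controls splicing of Mat2a RNA, at 19.7, 23.9, 29.3 and 25.7 CPM in Control and 36.5, 59.8, 58.9 and 56.2 CPM in Acacetin (log2 fold change 1.10, SE 0.19, adjusted p = 0.00129). Shmt1, a serine hydroxymethyltransferase, rose as well (102 ± 21.0 CPM in Control and 189 ± 34.7 CPM in Acacetin, log2 fold change 0.89, SE 0.17, adjusted p = 0.00231).

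Genes of protein folding in the ER rose more often than they fell. Among ER chaperones and genes of ER-associated degradation, 11 of 29 tested members rose and 2 fell (median log2 fold change 0.54). ER-list falls numbered 1 without Acacetin 3 or Acacetin 4. Dnajb11, a co-chaperone of BiP, was at 43.3, 42.0, 50.9 and 42.1 CPM in Control and 85.8, 109.5, 92.1 and 93.9 CPM in Acacetin (log2 fold change 1.10, SE 0.12, adjusted p = 0.000135). Selenos, a selenoprotein of the degradation machinery, was at 20.2, 22.1, 23.1 and 19.6 CPM in Control and 55.1, 58.2, 40.1 and 39.2 CPM in Acacetin (log2 fold change 1.18, SE 0.18, adjusted p = 0.000605). Syvn1, the ubiquitin ligase HRD1, was at 16.2, 13.8, 15.7 and 13.5 CPM in Control and 27.4, 27.6, 26.3 and 26.9 CPM in Acacetin (log2 fold change 0.87, SE 0.13, adjusted p = 0.000559). The groups did not overlap in these 3 genes, and the Acacetin values of Syvn1 lay within a narrow range. Hyou1, an ER chaperone of the Hsp70 family, rose by less (105 ± 1.98 CPM in Control and 177 ± 26.5 CPM in Acacetin, log2 fold change 0.75, SE 0.12, adjusted p = 0.000897).

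Promoters of this list are known for the ER stress response element, a CCAAT box and a CCACG box held apart by a fixed spacer. CCAAT followed after 9 bases of any kind by CCACG was searched on both strands from 250 bases before to 50 bases after each RefSeq transcript start (GRCm38.p6). It was present in 9 of the 24 list members with a promoter in the table, in 4 of the 8 risen members with a promoter there, and in 37 of all 27025 genes (0.137%). Stretches of the 4 risen members that hold it are printed to show the element beside its values, 5′ to 3′ on the gene's strand with the match in capitals. Calr and Creld2 carry it in reverse complement.
Calr (chr8:84847040-84847128, minus strand): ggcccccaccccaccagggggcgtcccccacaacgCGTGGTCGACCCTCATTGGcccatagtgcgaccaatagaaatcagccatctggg
Creld2 (chr15:88819485-88819573, plus strand): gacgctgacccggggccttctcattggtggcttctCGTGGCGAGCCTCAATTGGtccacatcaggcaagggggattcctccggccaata
Dnajc3 (chr14:118937792-118937880, plus strand): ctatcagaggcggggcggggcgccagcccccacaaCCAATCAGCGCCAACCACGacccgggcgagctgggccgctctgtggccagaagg
Syvn1 (chr19:6046497-6046575, plus strand): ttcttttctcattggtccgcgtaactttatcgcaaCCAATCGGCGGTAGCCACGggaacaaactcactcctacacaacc
Calr encodes the chaperone calreticulin, Creld2 a disulfide isomerase of the ER and Dnajc3 the co-chaperone P58IPK; these 3 were named for the match in their promoter, after their values were seen. Their log2 fold changes were 0.89 for Calr, 0.82 for Creld2 and 1.02 for Dnajc3. The element was also present in promoters of Hspa5 (BiP, 0.76), Canx (0.97), Hsp90b1 (0.96), Pdia6 (0.11) and Ero1b (0.02), none of which was called. A match describes letters in this window and shows no binding. Other lists were searched for elements of their own, and most of those matches are not described.

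Heat shock chaperone and proteasome genes had more rises than falls, in counts that depended on single libraries. The proteasome list's total share called was below the 26.9% of all tested genes, so the list did not stand out by that share. Of heat shock chaperones, 6 of 21 tested members rose and 1 fell (median log2 fold change 0.53). Chaperone rises numbered 1 without Control 1, 3 without Control 2, 11 without Acacetin 1 and 2 without Acacetin 2. Hsph1, an Hsp110 chaperone, was at 13.8, 14.97, 15.1 and 16.5 CPM in Control and 15.5, 29.4, 49.2 and 41.2 CPM in Acacetin (log2 fold change 1.17, SE 0.30, adjusted p = 0.0112), and the call was lost with limma on log2(FPKM + 1) (adjusted p = 0.0845) and with limma on log2(FPKM + 0.1) (adjusted p = 0.0683). Acacetin 1 was inside the Control range and Acacetin 3 was the highest library. Of proteasome genes, 6 of 35 tested members rose and 1 fell (median log2 fold change 0.24). Proteasome rises numbered 3 without Control 1, Control 2 or Acacetin 2, and falls numbered 0 without Control 1, Control 2, Control 3, Acacetin 2, Acacetin 3 or Acacetin 4 and 4 without Acacetin 1. Psmd6, a subunit of the regulatory particle, was at 24.97, 29.2, 34.8 and 28.6 CPM in Control and 42.5, 53.9, 51.9 and 54.4 CPM in Acacetin (log2 fold change 0.79, SE 0.15, adjusted p = 0.00220), and Psme3, an activator subunit, rose too (97.1 ± 4.34 CPM in Control and 146 ± 19.5 CPM in Acacetin, log2 fold change 0.59, SE 0.12, adjusted p = 0.00315).

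Genes of the integrated stress response moved in both directions. Of targets of ATF4 and of the response, 4 of 27 tested members rose and 7 fell (median log2 fold change -0.15). Stress-response rises numbered 2 without Control 2, Control 3 or Acacetin 2. Beside Ddit3, Gdf15, a secreted stress cytokine, was at 73.1, 67.4, 52.1 and 77.9 CPM in Control and 32.0, 32.0, 16.9 and 17.5 CPM in Acacetin (log2 fold change -1.46, SE 0.22, adjusted p = 0.000605). Atf5, a transcription factor of the same response, went the other way, at 39.7, 32.8, 30.5 and 26.8 CPM in Control and 87.6, 105, 60.9 and 60.8 CPM in Acacetin (log2 fold change 1.27, SE 0.20, adjusted p = 0.000730). The 2 genes had groups that did not overlap, in opposite directions. The CARE element, TTGCATCA, which pairs of C/EBP and ATF proteins bind, was present in 4 of 25 promoters of the list, in 3 of the 7 fallen and 0 of the 3 risen members with a promoter there, against 1.03% of all genes. Stretches of the 3 fallen members are printed for the same reason as above, with the match in capitals and in reverse complement for Pycr1.
Atf3 (chr1:191183401-191183478, minus strand): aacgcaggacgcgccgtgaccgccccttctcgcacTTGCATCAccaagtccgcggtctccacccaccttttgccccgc
Nupr1 (chr7:126625538-126625615, minus strand): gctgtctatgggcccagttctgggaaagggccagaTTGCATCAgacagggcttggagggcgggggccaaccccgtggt
Pycr1 (chr11:120643809-120643886, minus strand): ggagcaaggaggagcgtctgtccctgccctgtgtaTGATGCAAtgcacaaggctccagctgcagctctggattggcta
Atf3 encodes a stress-induced repressor, Nupr1 a small nuclear stress protein and Pycr1 an enzyme of proline synthesis, all named after their values were seen. Their log2 fold changes were -0.66 for Atf3, -0.88 for Nupr1 and -1.32 for Pycr1. The element was also present in the promoter of Chac1 (-0.26), which was not called and was likewise named after its value was seen. Of aminoacyl-tRNA synthetases, which charge tRNAs, 2 of 20 tested members rose and 1 fell (median log2 fold change 0.15). Synthetase rises numbered 1 without Control 1, Control 2, Control 3, Acacetin 2 or Acacetin 4 and 6 without Acacetin 1, and falls numbered 2 without Acacetin 1. Hars, the histidine enzyme, rose (128 ± 5.54 CPM in Control and 187 ± 23.8 CPM in Acacetin, log2 fold change 0.54, SE 0.13, adjusted p = 0.00921).

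Damage and death genes were called in both directions. Of p53 targets, 1 of 23 tested members rose and 7 fell (median log2 fold change -0.09). p53-target rises numbered 3 without Acacetin 1 and 2 without Acacetin 3. Gadd45a, a growth arrest gene, was at 5.77, 9.50, 6.27 and 12.5 CPM in Control and 2.28, 2.68, 3.24 and 2.71 CPM in Acacetin (log2 fold change -1.64, SE 0.27, adjusted p = 0.000988; -1.01 on log2(FPKM + 1)). Gadd45b, its relative, was at 68.2, 76.7, 61.8 and 74.8 CPM in Control and 44.8, 41.0, 31.6 and 31.2 CPM in Acacetin (log2 fold change -0.92, SE 0.14, adjusted p = 0.000697). Aen, a nuclease, was the risen member, at 6.63, 6.97, 8.81 and 7.17 CPM in Control and 19.3, 21.1, 16.9 and 12.8 CPM in Acacetin (log2 fold change 1.24, SE 0.18, adjusted p = 0.000539). Groups were apart in these 3 genes, and Control 2 and Control 4 were the high Control libraries of Gadd45a. Of the BCL2 family and other death genes, 4 of 36 tested members rose and 6 fell (median log2 fold change 0.13). Death-gene rises numbered 2 without Control 2 or Control 4 and 10 without Acacetin 1, and falls numbered 3 without Acacetin 2. The members moved in both directions within the pro-apoptotic BH3-only genes. Bid was at 33.8, 32.5, 34.4 and 27.4 CPM in Control and 66.3, 88.1, 72.6 and 73.9 CPM in Acacetin (log2 fold change 1.23, SE 0.14, adjusted p = 0.000135). Bcl2l11, which encodes BIM, was at 38.6, 33.5, 31.4 and 36.8 CPM in Control and 67.4, 81.1, 66.8 and 62.6 CPM in Acacetin (log2 fold change 0.99, SE 0.12, adjusted p = 0.000236). Bbc3, which encodes PUMA and is shared with the p53 list, was at 28.3, 27.3, 20.6 and 33.4 CPM in Control and 15.9, 12.4, 8.13 and 10.4 CPM in Acacetin (log2 fold change -1.23, SE 0.21, adjusted p = 0.00110). Pycard, the inflammasome adaptor ASC, had 61 reads in the 4 Control libraries together and 3 in the 4 Acacetin libraries (adjusted p = 0.000873), too few for a fold change to be given.

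Some inflammatory mediators fell, and others did not pass the test. Of inflammatory targets of NF-κB, 1 of 26 tested members rose and 4 fell (median log2 fold change -0.13). The list's total share called was 19.2%, below the 26.9% of all tested genes. NF-κB target rises numbered 2 without Control 4 and 3 without Acacetin 3, and falls numbered 9 without Acacetin 1. Nos2, the inducible nitric oxide synthase (chromosome 11), was at 189, 198, 161 and 223 CPM in Control and 82.7, 40.1, 52.5 and 78.8 CPM in Acacetin (log2 fold change -1.60, SE 0.29, adjusted p = 0.00160). Lcn2, a secreted siderophore-binding protein of activated glia (chromosome 2), was at 382, 407, 364 and 411 CPM in Control and 113, 66.2, 53.8 and 96.1 CPM in Acacetin (log2 fold change -2.25, SE 0.22, adjusted p = 7.27e-05). Lta, lymphotoxin alpha, was at 45.4, 52.9, 45.6 and 53.6 CPM in Control and 14.9, 7.45, 6.49 and 11.2 CPM in Acacetin (log2 fold change -2.31, SE 0.25, adjusted p = 0.000133). These groups lay far apart, and the OGD means were 79.2 ± 33.7 CPM for Nos2, 107 ± 21.0 CPM for Lcn2 and 8.06 ± 2.18 CPM for Lta. Ltb, lymphotoxin beta, fell as well (25.9 ± 2.796 CPM in Control and 8.85 ± 3.72 CPM in Acacetin, log2 fold change -1.56, SE 0.25, adjusted p = 0.000806). Of chemokine ligands, 2 of 15 tested members rose and 5 fell (median log2 fold change -0.5). Chemokine rises numbered 1 without Control 1, and falls numbered 3 without Control 3 or Acacetin 4. Ccl3, a macrophage inflammatory protein (chromosome 11), was at 3182, 4909, 3361 and 4994 CPM in Control and 1278, 1165, 1123 and 1726 CPM in Acacetin (log2 fold change -1.64, SE 0.20, adjusted p = 0.000219). Every Acacetin library was under every Control library, and OGD held 1073 ± 39.3 CPM. Ccl6 was a risen member, at 14.04, 18.5, 19.6 and 21.5 CPM in Control and 26.5, 33.2, 43.8 and 40.3 CPM in Acacetin (log2 fold change 0.97, SE 0.17, adjusted p = 0.00145). Cxcl10, an interferon-inducible chemokine, was at 11.3, 21.8, 18.5 and 31.6 CPM in Control and 4.84, 7.31, 9.54 and 10.1 CPM in Acacetin (log2 fold change -1.39, SE 0.30, adjusted p = 0.00495), and its call was lost with limma on log2(FPKM + 1) (adjusted p = 0.0525).

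Other cytokine genes did not pass the test. Tnf, the tumour necrosis factor gene, was at 606, 597, 648 and 519 CPM in Control and 586, 473, 325 and 432 CPM in Acacetin (log2 fold change -0.38, 95% interval -0.75 to -0.02, adjusted p = 0.110). It was called without Acacetin 1 (-0.53, adjusted p = 0.0137), by DESeq2 (adjusted p = 0.0420) and with the length trend removed (adjusted p = 0.0436). Ccl2, the monocyte chemoattractant, was at 983, 1406, 1205 and 1531 CPM in Control and 977, 886, 856 and 1178 CPM in Acacetin (-0.40, 95% interval -0.75 to -0.04, adjusted p = 0.0930, and 0.0268 by DESeq2). Tnf and Ccl2 had lower Acacetin means with groups that overlapped. Ptgs2, cyclooxygenase-2, was at 6.71, 10.9, 5.99 and 18.4 CPM in Control and 1.99, 2.65, 12.6 and 6.27 CPM in Acacetin (-0.83, 95% interval -1.96 to 0.30, adjusted p = 0.253). Acacetin 3 and 4 were inside the Control range. Without Acacetin 3 the fold change was -1.52 (adjusted p = 0.0307). Il6, interleukin-6, was low in all 8 libraries, at 1.92, 1.99, 1.94 and 2.55 CPM in Control and 0.997, 2.30, 3.49 and 2.46 CPM in Acacetin (0.14, 95% interval -0.56 to 0.84, adjusted p = 0.766), with -0.12 without Acacetin 3. Arg1, arginase 1, was at 1.88, 2.90, 3.65 and 3.32 CPM in Control and 2.99, 0.495, 0.687 and 2.78 CPM in Acacetin (-0.78, 95% interval -2.42 to 0.86, adjusted p = 0.468).

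For Il1b, Isg15 and Id3 the Acacetin mean was at or below the Control mean while the OGD mean was above it. Il1b, interleukin-1 beta (chromosome 2), was at 12.03, 14.8, 23.5 and 15.2 CPM in Control and 17.8, 16.3, 15.7 and 15.4 CPM in Acacetin, and OGD held 36.0, 46.9, 44.1 and 35.4 CPM. Acacetin against Control gave a log2 fold change of -0.01 (95% interval -0.40 to 0.39, adjusted p = 0.983), whose sign differed between settings. OGD against Control gave 1.31, SE 0.19, adjusted p = 0.000295, and Acacetin against OGD gave -1.32, SE 0.19, adjusted p = 0.0686. Isg15, a ubiquitin-like protein induced by interferon (chromosome 4), was at 35.4, 38.6, 59.4 and 35.8 CPM in Control and 60.1, 42.7, 31.9 and 32.0 CPM in Acacetin, and OGD held 89.2, 113, 121 and 91.7 CPM. Acacetin against Control gave -0.02 (95% interval -0.50 to 0.45, adjusted p = 0.948), again with a sign that differed between settings, and Acacetin against OGD gave -1.31, SE 0.22, adjusted p = 0.128. Id3, an inhibitor of basic helix-loop-helix factors (chromosome 4), was at 32.3, 37.8, 29.0 and 37.0 CPM in Control and 22.9, 22.9, 14.1 and 14.8 CPM in Acacetin (log2 fold change -0.87, SE 0.20, adjusted p = 0.00668), and OGD held 41.1, 62.1, 47.5 and 37.1 CPM. Every Acacetin library of Id3 was below every Control library, while 3 of the 4 OGD libraries were above the highest Control library. Acacetin against OGD gave -1.33, SE 0.20, adjusted p = 0.0686 for Id3. None of the 3 differences between Acacetin and OGD passed the threshold by edgeR. OGD 2 and OGD 3, the 2 libraries with the high shares of 18S ribosomal RNA, were the highest OGD libraries in each of the 3 genes, and the part of that property in these OGD values was not tested.

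**Figure D4:**
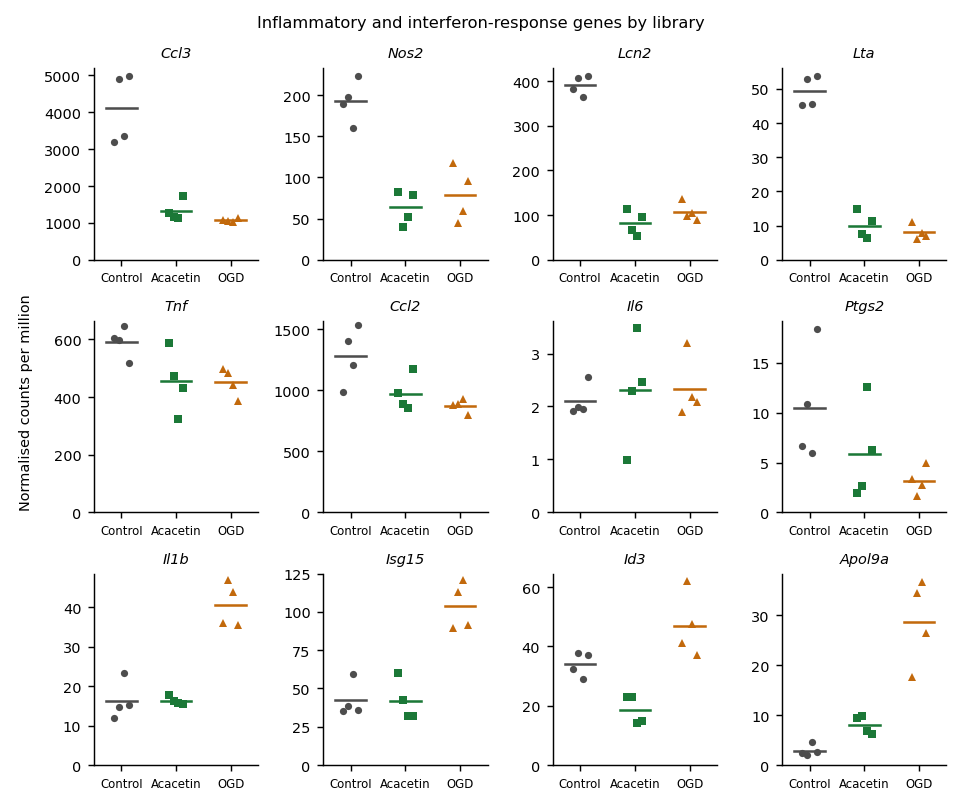
Normalised CPM (y axes, linear from 0) of 12 inflammatory and interferon-response genes in Control (circles), Acacetin (squares) and OGD (triangles); points are libraries and lines group means. Ccl3, Nos2, Lcn2 and Lta lie lower in Acacetin than in Control, and Il1b has means of 16.4 CPM in Control, 16.3 CPM in Acacetin and 40.6 CPM in OGD.

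NF-κB subunits and inhibitors were called at a share near that of all tested genes, 26.7% against 26.9%. Of NF-κB subunits and inhibitors, 2 of 15 tested members rose and 2 fell (median log2 fold change 0.03). NF-κB subunit rises numbered 5 without Acacetin 1. Relb, a subunit of the non-canonical pathway, was at 30.8, 29.5, 23.2 and 25.2 CPM in Control and 18.7, 14.7, 11.2 and 12.9 CPM in Acacetin (log2 fold change -0.92, SE 0.18, adjusted p = 0.00243). Nfkb2, its partner, fell as well (79.3 ± 8.80 CPM in Control and 46.5 ± 11.8 CPM in Acacetin, log2 fold change -0.77, SE 0.17, adjusted p = 0.00435). Nfkbid, a nuclear inhibitor, was at 29.6, 23.8, 26.9 and 17.1 CPM in Control and 56.8, 70.9, 50.5 and 42.7 CPM in Acacetin (log2 fold change 1.18, SE 0.18, adjusted p = 0.000680). The groups did not overlap for these genes. Of Toll-like receptors and adaptors, 7 of 21 tested members rose and 2 fell (median log2 fold change 0.82). Toll-list rises numbered 12 without Acacetin 1. Myd88, the shared adaptor, was at 64.1, 53.5, 70.9 and 41.6 CPM in Control and 184, 168, 118 and 119 CPM in Acacetin (log2 fold change 1.36, SE 0.19, adjusted p = 0.000502). Tlr2, a receptor for bacterial lipopeptides, was at 20.5, 20.4, 27.0 and 18.4 CPM in Control and 34.95, 43.5, 38.0 and 40.3 CPM in Acacetin (log2 fold change 0.86, SE 0.16, adjusted p = 0.00184). Irak2, a kinase downstream of Myd88, fell (60.3 ± 4.44 CPM in Control and 33.8 ± 3.87 CPM in Acacetin, log2 fold change -0.84, SE 0.12, adjusted p = 0.000547). Of chemokine and cytokine receptors, 3 of 28 tested members rose and 5 fell (median log2 fold change 0.17). Receptor rises numbered 5 without Acacetin 1, and falls numbered 3 without Control 4. Csf3r, the receptor for G-CSF, was at 9.58, 10.9, 6.59 and 10.1 CPM in Control and 4.23, 2.27, 3.22 and 2.71 CPM in Acacetin (log2 fold change -1.59, SE 0.24, adjusted p = 0.000622; -0.82 on log2(FPKM + 1)). Il10ra, the interleukin-10 receptor subunit, fell (12.8 ± 1.52 CPM in Control and 6.09 ± 2.02 CPM in Acacetin, log2 fold change -1.08, SE 0.25, adjusted p = 0.00740), and Csf1r, which microglia need to survive, rose (66.3 ± 8.43 CPM in Control and 101 ± 15.6 CPM in Acacetin, log2 fold change 0.6, SE 0.14, adjusted p = 0.00662).

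More antigen presentation genes fell than rose. Of its genes, 1 of 20 tested members rose and 9 fell (median log2 fold change -0.42). Presentation rises numbered 2 without Acacetin 1, and falls numbered 5 without Control 2, Control 3, Acacetin 2 or Acacetin 3 and 4 without Acacetin 4. Tap1, the peptide transporter of the class I pathway, was at 80.9, 71.7, 72.8 and 70.4 CPM in Control and 51.1, 40.7, 29.6 and 34.9 CPM in Acacetin (log2 fold change -0.92, SE 0.15, adjusted p = 0.000942), and OGD held 59.2 ± 4.95 CPM. H2-DMb1, which loads class II molecules, was at 81.2, 68.6, 69.4 and 65.9 CPM in Control and 59.0, 39.7, 28.5 and 38.3 CPM in Acacetin (log2 fold change -0.79, SE 0.19, adjusted p = 0.00778). Psmb9, an immunoproteasome subunit, was at 62.0, 58.3, 68.0 and 54.5 CPM in Control and 50.3, 29.1, 22.9 and 30.6 CPM in Acacetin (log2 fold change -0.87, SE 0.21, adjusted p = 0.00811). Acacetin 1 was the highest Acacetin library in all 3 genes, and in each gene all 4 Acacetin libraries stayed below Control. H2-Aa, a class II chain, was low in both groups and fell (1.75 ± 0.302 CPM in Control and 0.369 ± 0.0418 CPM in Acacetin, log2 fold change -2.24, SE 0.27, adjusted p = 0.000209), by less on the FPKM scales (-0.35 on log2(FPKM + 1) and -1.37 on log2(FPKM + 0.1)). Of interferon-stimulated genes, 4 of 41 tested members rose and 5 fell (median log2 fold change 0.03). Interferon-gene rises numbered 10 without Acacetin 1, and falls numbered 9 without Acacetin 1. Oas2, which senses double-stranded RNA, was at 7.90, 7.18, 9.68 and 8.59 CPM in Control and 16.7, 19.4, 18.99 and 20.2 CPM in Acacetin (log2 fold change 1.17, SE 0.18, adjusted p = 0.000680). Dhx58, the RNA sensor LGP2, was at 29.5, 28.1, 34.1 and 31.2 CPM in Control and 19.1, 13.1, 10.7 and 14.4 CPM in Acacetin (log2 fold change -1.10, SE 0.16, adjusted p = 0.000592). Ifi27l2a was at 167, 163, 169.7 and 159 CPM in Control and 112, 55.5, 38.1 and 58.6 CPM in Acacetin (log2 fold change -1.32, SE 0.26, adjusted p = 0.00237). The 3 genes did not share a direction, and their groups were apart. Apol9a, an interferon-induced apolipoprotein whose reads may be shared with the near-identical Apol9b, rose (2.89 ± 1.17 CPM in Control and 8.03 ± 1.85 CPM in Acacetin, log2 fold change 1.47, SE 0.29, adjusted p = 0.00287; 0.67 on log2(FPKM + 1)), and OGD held 28.7 ± 8.63 CPM.

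Receptors for complement fragments rose, and an integrin receptor fell. Of complement genes, 4 of 15 tested members rose and 2 fell (median log2 fold change -0.29). Complement falls numbered 1 without Control 4 or Acacetin 2 and 5 without Acacetin 1. C3ar1, the receptor for C3a, was at 12.97, 14.4, 17.9 and 13.3 CPM in Control and 27.8, 49.1, 56.3 and 57.7 CPM in Acacetin (log2 fold change 1.70, SE 0.22, adjusted p = 0.000305). C5ar1, a receptor for C5a, was at 34.1, 28.8, 33.5 and 24.6 CPM in Control and 74.2, 69.2, 54.8 and 64.8 CPM in Acacetin (log2 fold change 1.12, SE 0.14, adjusted p = 0.000219). Itgax, a subunit of complement receptor 4, was at 41.3, 48.6, 41.5 and 52.0 CPM in Control and 21.8, 23.9, 22.3 and 26.0 CPM in Acacetin (log2 fold change -0.97, SE 0.13, adjusted p = 0.000325), with an OGD mean of 35.3 ± 3.74 CPM. All 3 had separate groups, with Itgax in the opposite direction. Of phagocytic and Fc receptors, 1 of 18 tested members rose and 2 fell (median log2 fold change -0.11). Phagocytic rises numbered 0 without Control 1, Control 2, Control 4, Acacetin 2 or Acacetin 4, and falls numbered 5 without Acacetin 1. Fcgr1, the high-affinity IgG receptor, was the risen member at 51.2, 56.2, 76.8 and 42.6 CPM in Control and 84.7, 94.9, 73.2 and 81.4 CPM in Acacetin (log2 fold change 0.56, SE 0.18, adjusted p = 0.0321), with groups that overlapped. Its call was lost without Control 1 (adjusted p = 0.0895), without Control 2 (adjusted p = 0.0784), without Control 4 (adjusted p = 0.0515), without Acacetin 2 (adjusted p = 0.0918) and without Acacetin 4 (adjusted p = 0.0556).

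The label of the cells was checked against markers. Of 10 microglia and macrophage markers, 10 were tested, 1 was higher (Csf1r) and 2 were lower (Aif1 and Fcer1g), and their summed level was 4016 to 4856 CPM in Control and 4195 to 4451 CPM in Acacetin. The call of Fcer1g was lost with length trend removed (adjusted p = 0.0670), with limma on log2(FPKM + 1) (adjusted p = 0.0897) and with limma on log2(FPKM + 0.1) (adjusted p = 0.0908). These sums and the other marker levels are CPM of total reads, without TMM. Markers of neurons summed to 3.76 to 7.37 CPM in Control and 2.21 to 3.32 CPM in Acacetin, mostly from Tubb3, with Rbfox3 at 0 reads. Both of the 2 neuron markers that were tested were lower. Neutrophil markers summed to 13.3 to 32.6 CPM and 8.01 to 11.3 CPM, nearly all from S100a8, and 1 of 2 tested markers was lower. Astrocyte markers reached at most 1.22 CPM, with 1 tested marker, Slc1a2, that was higher. Oligodendrocyte, fibroblast, endothelial and lymphocyte markers reached at most 2.59 CPM in any library, with no tested member called by edgeR. Cldn5 of endothelial cells had 0 reads in these libraries. Defining genes of resident brain microglia were low: P2ry12 had 13 reads and Gpr34 had 6 in the 12 libraries together, and Tmem119 reached 3.21 to 6.91 CPM in the 8.

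Of the longer identity list, 1 of 21 tested members rose and 6 fell (median log2 fold change -0.25). Irf8, a transcription factor of the macrophage lineage, was at 150.0, 151, 128 and 160.0 CPM in Control and 89.5, 65.4, 54.8 and 63.7 CPM in Acacetin (log2 fold change -1.11, SE 0.17, adjusted p = 0.000600). Aif1, which encodes IBA1, was at 15.2, 18.1, 20.2 and 17.3 CPM in Control and 9.97, 6.52, 5.33 and 6.82 CPM in Acacetin (log2 fold change -1.31, SE 0.23, adjusted p = 0.00122), and OGD held 11.8 ± 2.98 CPM. Groups were apart in both genes. Runx1, another lineage factor, fell too (31.3 ± 3.51 CPM in Control and 18.8 ± 1.74 CPM in Acacetin, log2 fold change -0.74, SE 0.13, adjusted p = 0.00133), though the call was lost with limma on log2(FPKM + 1) (adjusted p = 0.142) and with limma on log2(FPKM + 0.1) (adjusted p = 0.164).

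Hypoxia genes were called in both directions. Of genes known to be induced by hypoxia, 3 of 28 tested members rose and 5 fell (median log2 fold change 0.18). Hypoxia rises numbered 5 without Acacetin 1, and falls numbered 2 without Control 1 or Acacetin 2 and 3 without Control 2, Control 4, Acacetin 3 or Acacetin 4. Car9, the carbonic anhydrase that is a common marker of hypoxia, was at 3.60, 4.604, 2.82 and 3.38 CPM in Control and 1.52, 0.757, 0.550 and 1.32 CPM in Acacetin (log2 fold change -1.81, SE 0.34, adjusted p = 0.00191; -0.72 on log2(FPKM + 1)). Selenbp1, a methanethiol oxidase, was at 148, 133, 127 and 132 CPM in Control and 82.3, 31.6, 27.8 and 57.7 CPM in Acacetin (log2 fold change -1.44, SE 0.33, adjusted p = 0.00629). Ak4, a mitochondrial adenylate kinase, was at 17.3, 17.5, 19.2 and 19.5 CPM in Control and 35.4, 33.1, 31.9 and 44.6 CPM in Acacetin (log2 fold change 0.98, SE 0.14, adjusted p = 0.000456). The first 2 were lower in all 4 Acacetin libraries and Ak4 was higher in all 4. Egln1, the oxygen sensor PHD2, rose (45.9 ± 7.70 CPM in Control and 76.6 ± 18.4 CPM in Acacetin, log2 fold change 0.74, SE 0.18, adjusted p = 0.00983). Vegfa, the vascular growth factor, was not called, at 13.7, 16.2, 12.6 and 17.6 CPM in Control and 13.6, 18.1, 18.9 and 19.6 CPM in Acacetin (0.22, 95% interval -0.11 to 0.56, adjusted p = 0.302). Of glycolysis and pentose phosphate genes, 4 of 28 tested members rose and 4 fell (median log2 fold change -0.13). Glycolysis falls numbered 9 without Acacetin 1. Slc2a8, an intracellular glucose transporter, was at 48.6, 42.6, 36.5 and 45.3 CPM in Control and 15.7, 6.32, 5.06 and 8.85 CPM in Acacetin (log2 fold change -2.28, SE 0.31, adjusted p = 0.000408). Slc16a1, the lactate carrier MCT1, was at 24.9, 26.7, 29.9 and 28.0 CPM in Control and 39.5, 81.9, 84.2 and 83.1 CPM in Acacetin (log2 fold change 1.4, SE 0.21, adjusted p = 0.000600), with Acacetin 1 apart from the other 3. G6pdx, the first enzyme of the pentose phosphate pathway, was at 183, 179, 193 and 181 CPM in Control and 329, 413, 284 and 411 CPM in Acacetin (log2 fold change 0.97, SE 0.15, adjusted p = 0.000795).

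The respiratory chain is encoded by the mitochondrial and the nuclear genome. Of the 13 mitochondrially encoded genes, 6 of 13 tested members rose and 0 fell (median log2 fold change 0.69) (edgeR; for falls, 0 at an unadjusted p under 0.05 and 0 by DESeq2). mt-Nd1, a subunit of complex I, was at 350.2, 253, 408 and 188 CPM in Control and 897, 1058, 1591 and 896 CPM in Acacetin (log2 fold change 1.89, SE 0.25, adjusted p = 0.000335). mt-Nd2, of the same complex, was at 165, 131, 191 and 82.0 CPM in Control and 494, 468, 667 and 412 CPM in Acacetin (log2 fold change 1.84, SE 0.23, adjusted p = 0.000231). mt-Cytb, of complex III, was at 772, 354, 732 and 362 CPM in Control and 1047, 1066, 1396 and 864 CPM in Acacetin (log2 fold change 0.98, SE 0.26, adjusted p = 0.0124). In each gene all 4 Acacetin libraries were above all 4 Control libraries, and the OGD means lay between, at 727 ± 84.1 CPM, 316 ± 24.3 CPM and 717 ± 67.5 CPM. Nuclear genes of the chain had no call: 0 of 34 rose and 0 fell by edgeR (median -0.26), with 2 higher and 3 lower at an unadjusted p under 0.05 and 2 higher and 1 lower by DESeq2. Nuclear-chain rises numbered 1 without Acacetin 1 or Acacetin 3, and falls numbered 1 without Control 4 and 20 without Acacetin 1.

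Antioxidant genes moved both ways. Of NRF2 and antioxidant genes, 7 of 27 tested members rose and 3 fell (median log2 fold change 0.17). Antioxidant falls numbered 5 without Acacetin 1. Beside Nqo1, Srxn1, which repairs peroxiredoxins, was at 22.1, 23.1, 26.1 and 18.9 CPM in Control and 52.4, 76.2, 52.2 and 49.3 CPM in Acacetin (log2 fold change 1.35, SE 0.17, adjusted p = 0.000299). Gstm1, a glutathione transferase, was at 338, 299.5, 272 and 285 CPM in Control and 207, 176, 126 and 161 CPM in Acacetin (log2 fold change -0.83, SE 0.15, adjusted p = 0.00159). Groups were apart in both, Srxn1 up and Gstm1 down. Hmox1, heme oxygenase 1, was not called, at 533, 691, 711 and 653 CPM in Control and 751, 516, 393 and 664 CPM in Acacetin (-0.16, 95% interval -0.57 to 0.26, adjusted p = 0.572). Of iron and heme genes, 3 of 25 tested members rose and 5 fell (median log2 fold change -0.19). Iron-gene falls numbered 3 without Control 2 or Acacetin 2 and 10 without Acacetin 1. Slc11a1, the NRAMP1 metal transporter of phagosomes, was at 257, 211, 249 and 187 CPM in Control and 517, 579, 361 and 367 CPM in Acacetin (log2 fold change 1.01, SE 0.18, adjusted p = 0.00129), and Uros, an enzyme of heme synthesis, rose too (4.42 ± 0.663 CPM in Control and 10.1 ± 2.29 CPM in Acacetin, log2 fold change 1.19, SE 0.20, adjusted p = 0.00109). Of metallothioneins and zinc carriers, 7 of 18 tested members rose and 1 fell (median log2 fold change 0.34). Zinc-gene falls numbered 0 without Control 1 or Acacetin 4. Slc30a1, a zinc exporter, was at 3.85, 3.90, 3.93 and 5.24 CPM in Control and 8.55, 12.3, 13.1 and 11.4 CPM in Acacetin (log2 fold change 1.42, SE 0.21, adjusted p = 0.000539). Slc39a14, a zinc and iron importer, was at 26.4, 21.8, 22.3 and 21.5 CPM in Control and 38.2, 54.2, 46.5 and 46.1 CPM in Acacetin (log2 fold change 1.01, SE 0.14, adjusted p = 0.000391).

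Of genes of nitric oxide, arginine and polyamines, 3 of 20 tested members rose and 5 fell (median log2 fold change 0.02). Arginine-list rises numbered 1 without Acacetin 2. Beside Nos2, Ass1, which rebuilds arginine from citrulline, was at 21.7, 20.4, 15.6 and 20.8 CPM in Control and 11.8, 10.3, 7.12 and 10.3 CPM in Acacetin (log2 fold change -0.99, SE 0.18, adjusted p = 0.00160). Paox, a polyamine oxidase, was at 62.9, 54.3, 53.1 and 54.3 CPM in Control and 41.8, 26.8, 19.2 and 24.3 CPM in Acacetin (log2 fold change -1.005, SE 0.20, adjusted p = 0.00307). Both were lower in every Acacetin library. Of eicosanoid synthesis genes, 3 of 18 tested members rose and 4 fell (median log2 fold change -0.21). Eicosanoid falls numbered 7 without Acacetin 1. Ltc4s, leukotriene C4 synthase (chromosome 11), was at 16.04, 14.8, 14.5 and 14.03 CPM in Control and 4.46, 2.85, 2.20 and 3.75 CPM in Acacetin (log2 fold change -2.17, SE 0.26, adjusted p = 0.000182), and OGD held 3.09 ± 0.903 CPM. Alox5, which starts leukotriene synthesis, was at 2.66, 2.45, 1.55 and 2.95 CPM in Control and 1.14, 0.932, 0.687 and 1.23 CPM in Acacetin (log2 fold change -1.27, SE 0.29, adjusted p = 0.00552; -0.28 on log2(FPKM + 1)). Ltc4s and Alox5 thus both fell, with groups that did not overlap. Of other leukotriene genes in the list, Lta4h was not called (-0.35, adjusted p = 0.0553). Alox5ap fell (-0.53, adjusted p = 0.0449). Lta4h and Alox5ap were named after their values were seen.

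Growth and cell cycle genes had more rises than falls. Of ribosome biogenesis genes, 16 of 35 tested members rose and 1 fell (median log2 fold change 0.56). Biogenesis falls numbered 2 without Acacetin 1. Rrs1, an assembly factor of the large subunit, was at 49.1, 43.3, 48.3 and 43.1 CPM in Control and 84.7, 111, 84.4 and 74.8 CPM in Acacetin (log2 fold change 0.95, SE 0.13, adjusted p = 0.000463). Polr1b, a subunit of RNA polymerase I, was at 61.4, 51.0, 58.6 and 41.3 CPM in Control and 85.3, 112, 81.4 and 84.8 CPM in Acacetin (log2 fold change 0.78, SE 0.15, adjusted p = 0.00205). Ubtf, the upstream binding factor of rRNA genes, rose as well (71.3 ± 5.15 CPM in Control and 106 ± 10.1 CPM in Acacetin, log2 fold change 0.57, SE 0.12, adjusted p = 0.00298). Structural proteins of the cytosolic ribosome had no call by edgeR: 0 of 36 rose and 0 fell, with a median of -0.38 and all members between -0.68 and -0.15. At an unadjusted p under 0.05, 4 were lower, and DESeq2 called the same number, 4, as lower. Ribosomal-protein falls numbered 26 without Acacetin 1. Of DNA replication genes, 15 of 40 tested members rose and 2 fell (median log2 fold change 0.33). Replication rises numbered 9 without Control 2. Fen1, the flap endonuclease of lagging strands, was at 76.3, 74.2, 94.1 and 59.1 CPM in Control and 206, 205, 146 and 145 CPM in Acacetin (log2 fold change 1.21, SE 0.18, adjusted p = 0.000545). Rrm2, a ribonucleotide reductase subunit, was at 42.0, 44.6, 49.99 and 43.4 CPM in Control and 67.3, 95.9, 86.4 and 84.8 CPM in Acacetin (log2 fold change 0.89, SE 0.14, adjusted p = 0.000730). Cdc25a, a phosphatase that opens S phase, was at 12.4, 13.7, 15.8 and 16.8 CPM in Control and 19.9, 36.1, 29.2 and 26.0 CPM in Acacetin (log2 fold change 0.92, SE 0.18, adjusted p = 0.00282). Every Acacetin library was above every Control library for these 3 genes. Of mitosis genes, 7 of 36 tested members rose and 0 fell (median log2 fold change 0.60) (edgeR; for falls, 1 at an unadjusted p under 0.05 and 0 by DESeq2). Mitosis rises numbered 1 without Control 1 or Control 2, 19 without Acacetin 1 and 3 without Acacetin 2, and falls numbered 1 without Acacetin 4. Aurka, a spindle kinase, was at 107, 108, 123 and 101 CPM in Control and 196, 188, 147 and 157 CPM in Acacetin (log2 fold change 0.65, SE 0.13, adjusted p = 0.00325).

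Replication-dependent histone genes make RNAs that mostly lack poly(A) tails, and the labels' protocol names an mRNA library kit. Of these, 3 of 35 tested members rose and 2 fell (median log2 fold change 0.20). Histone rises numbered 1 without Control 1, Control 2 or Acacetin 2. H1f2, a linker histone, was at 370.2, 509, 365 and 596 CPM in Control and 238, 239, 175 and 159 CPM in Acacetin (log2 fold change -1.18, SE 0.20, adjusted p = 0.000989). Its Control libraries 2 and 4 were the highest and no Acacetin library reached the Control range. H2ac6 fell and H3c8 rose, but reads may be shared among near-identical copies, so both are uncertain (-1.49, adjusted p = 0.00579, and 0.998, adjusted p = 0.0114). On log2(FPKM + 1) the value of H2ac6 was -0.88.

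Degradation and lipid genes were called in both directions. Of lysosome genes, 4 of 38 tested members rose and 7 fell (median log2 fold change -0.03). Lysosome rises numbered 2 without Control 1 or Acacetin 4, 0 without Control 2 or Acacetin 2 and 1 without Control 3, and falls numbered 4 without Control 2, Acacetin 3 or Acacetin 4 and 11 without Acacetin 1. Naglu, which removes N-acetylglucosamine from heparan sulfate, was at 121, 103, 87.5 and 111 CPM in Control and 43.6, 27.6, 19.6 and 26.2 CPM in Acacetin (log2 fold change -1.85, SE 0.21, adjusted p = 0.000151). Tfeb, the master regulator of lysosome genes, fell as well (39.6 ± 4.79 CPM in Control and 22.96 ± 6.54 CPM in Acacetin, log2 fold change -0.79, SE 0.18, adjusted p = 0.00659). Of autophagy genes, 4 of 36 tested members rose and 7 fell (median log2 fold change -0.11). Autophagy falls numbered 11 without Acacetin 1. Map1lc3a, an LC3 protein of the autophagosome, was at 112, 96.4, 91.8 and 94.8 CPM in Control and 64.1, 38.2, 26.4 and 35.6 CPM in Acacetin (log2 fold change -1.27, SE 0.22, adjusted p = 0.00118). Calcoco1, a selective autophagy receptor, was at 35.6, 34.3, 30.6 and 33.9 CPM in Control and 21.1, 14.9, 13.7 and 17.0 CPM in Acacetin (log2 fold change -1.01, SE 0.17, adjusted p = 0.000958). Both lay below Control in all 4 libraries. Of cholesterol synthesis and SREBP genes, 6 of 31 tested members rose and 3 fell (median log2 fold change 0.39). Sterol rises numbered 13 without Acacetin 1 and 3 without Acacetin 2, and falls numbered 5 without Acacetin 1. Fasn, fatty acid synthase, was at 86.6, 75.4, 75.8 and 61.9 CPM in Control and 143, 209, 146 and 122 CPM in Acacetin (log2 fold change 1.05, SE 0.17, adjusted p = 0.000756), and Tm7sf2, a sterol reductase, fell (35.1 ± 4.76 CPM in Control and 18.3 ± 6.71 CPM in Acacetin, log2 fold change -0.94, SE 0.21, adjusted p = 0.00570). Of LXR targets and lipid efflux genes, 2 of 19 tested members rose and 6 fell (median log2 fold change -0.30). Efflux rises numbered 0 without Control 2 or Acacetin 2 and 1 without Control 3, Control 4 or Acacetin 3, and falls numbered 10 without Acacetin 1 and 3 without Acacetin 2. Fabp4, a fatty acid binding protein, was at 523, 752, 607 and 734 CPM in Control and 466, 318, 251 and 335 CPM in Acacetin (log2 fold change -0.93, SE 0.21, adjusted p = 0.00538). Apoc1, an apolipoprotein, was at 2.21, 1.91, 2.62 and 2.32 CPM in Control and 1.04, 0.204, 0.550 and 0.452 CPM in Acacetin (log2 fold change -2.04, SE 0.40, adjusted p = 0.00265). Its fold change was -1.11 on the log2(FPKM + 1) scale and -2.78 without Acacetin 1 and 3.

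Signalling feedback genes changed in both directions. Of AP-1 and immediate early genes, 5 of 30 tested members rose and 7 fell (median log2 fold change 0.02). Early-gene falls numbered 4 without Control 1 or Control 2. Fosl1, an AP-1 subunit also called FRA1, was at 13.96, 12.2, 13.96 and 12.1 CPM in Control and 33.4, 40.7, 30.5 and 30.5 CPM in Acacetin (log2 fold change 1.37, SE 0.13, adjusted p = 7.27e-05). Zfp36, which speeds decay of cytokine mRNAs, was at 101, 109, 80.4 and 117 CPM in Control and 59.7, 60.02, 44.4 and 48.4 CPM in Acacetin (log2 fold change -0.94, SE 0.14, adjusted p = 0.000622). Its relative Zfp36l2 was at 16.4, 17.5, 14.4 and 18.3 CPM in Control and 27.7, 43.5, 47.8 and 41.1 CPM in Acacetin (log2 fold change 1.27, SE 0.19, adjusted p = 0.000601). These relatives moved in opposite directions with groups that did not overlap. Of a list of dual-specificity phosphatases and other ERK feedback genes, 3 of 23 tested members rose and 6 fell (median log2 fold change 0.10). The list also holds Sprtn (log2 fold change 1.22), a DNA repair protease that is not an ERK feedback gene. Its rise is counted among the 3. Feedback rises numbered 5 without Acacetin 1. Dusp4, a nuclear ERK phosphatase, was at 211, 241, 169 and 279 CPM in Control and 72.6, 61.1, 52.1 and 56.5 CPM in Acacetin (log2 fold change -1.89, SE 0.16, adjusted p = 5.59e-05). Dusp6, its cytoplasmic counterpart, was at 47.1, 43.1, 51.3 and 42.9 CPM in Control and 77.9, 70.9, 61.7 and 86.6 CPM in Acacetin (log2 fold change 0.69, SE 0.12, adjusted p = 0.00145). Dusp4 was thus lower and Dusp6 higher in every Acacetin library. Of Id proteins and SMAD signalling genes, 3 of 24 tested members rose and 4 fell (median log2 fold change 0.10). SMAD-list rises numbered 6 without Acacetin 1. Tgfbr2, a TGF-β receptor, fell (27.3 ± 2.57 CPM in Control and 14.1 ± 1.85 CPM in Acacetin, log2 fold change -0.96, SE 0.16, adjusted p = 0.000912), but the call was lost with limma on log2(FPKM + 1) (adjusted p = 0.0583) and with limma on log2(FPKM + 0.1) (adjusted p = 0.0716). Of clock genes, 2 of 19 tested members rose and 3 fell (median log2 fold change -0.01). Clock rises numbered 1 without Control 2, Control 3, Control 4 or Acacetin 3 and 4 without Acacetin 1. Nfil3, a bZIP repressor, was at 57.0, 53.4, 48.9 and 65.3 CPM in Control and 37.9, 31.4, 28.0 and 32.2 CPM in Acacetin (log2 fold change -0.80, SE 0.14, adjusted p = 0.00134), and Ciart, a repressor of the clock, rose (5.75 ± 0.978 CPM in Control and 11.7 ± 2.29 CPM in Acacetin, log2 fold change 1.02, SE 0.18, adjusted p = 0.00159).

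Of 1039 tested lncRNA genes, 146 (14.1%) rose and 100 (9.62%) fell. The largest rises with at least 2 CPM and separate groups were Gm42067, at 0.778, 0.539, 0.952 and 0.398 CPM in Control and 3.85, 4.28, 3.27 and 2.81 CPM in Acacetin (log2 fold change 2.41, SE 0.30, adjusted p = 0.000236), and 2 others. Gm17399 was at 0.491, 1.49, 1.75 and 1.13 CPM in Control and 4.89, 6.75, 5.30 and 5.07 CPM in Acacetin (log2 fold change 2.18, SE 0.33, adjusted p = 0.000605). 8030453O22Rik was at 3.23, 1.78, 4.56 and 3.62 CPM in Control and 11.4, 15.7, 11.4 and 9.50 CPM in Acacetin (log2 fold change 1.86, SE 0.26, adjusted p = 0.000502). The largest falls, with groups equally apart, were Arhgap27os1 (-2.29, adjusted p = 0.00229), 5830454E08Rik (-2.13, adjusted p = 0.00190) and 5031434O11Rik (-2.06, adjusted p = 0.000335). On log2(FPKM + 1) the values were 1.05 for Gm42067, 1.53 for Gm17399, -1.34 for Arhgap27os1 and -0.64 for 5031434O11Rik. Where a lncRNA gene overlaps another gene, as an opposite-strand transcript may, the strand setting of the counting decides its reads, and that setting was not given in the sources used here. Of host genes of small nucleolar RNAs, 5 of 17 tested members rose and 4 fell (median log2 fold change 0.10). Host-gene rises numbered 3 without Control 1, Control 3, Control 4, Acacetin 2 or Acacetin 4, and falls numbered 2 without Control 2, Acacetin 2, Acacetin 3 or Acacetin 4. Zfas1 was at 76.2, 112, 80.1 and 97.0 CPM in Control and 49.96, 40.9, 33.9 and 37.4 CPM in Acacetin (log2 fold change -1.17, SE 0.17, adjusted p = 0.000498). Snhg15 was at 28.1, 28.2, 32.5 and 22.6 CPM in Control and 77.7, 84.8, 57.1 and 45.9 CPM in Acacetin (log2 fold change 1.25, SE 0.21, adjusted p = 0.00117). Both host genes had groups that did not overlap, Zfas1 lower and Snhg15 higher. Of named lncRNAs, 9 of 21 tested members rose and 0 fell (median log2 fold change 0.43) (edgeR; for falls, 1 at an unadjusted p under 0.05 and 1 by DESeq2). Named-lncRNA rises numbered 5 without Control 2 or Acacetin 3, and falls numbered 1 without Acacetin 1 and 2 without Acacetin 3. Among them, Kcnq1ot1 and Mir17hg were highest in Acacetin 3. Kcnq1ot1, the imprinted antisense RNA of Kcnq1, was at 0.327, 0.207, 0.516 and 0.332 CPM in Control and 0.285, 3.23, 28.6 and 1.81 CPM in Acacetin (log2 fold change 4.603, SE 1.20, adjusted p = 0.0122). Without Acacetin 3 its fold change was 2.37 (adjusted p = 0.0492), with the length trend removed it was 2.63, on log2(FPKM + 1) it was 0.12, and the call was lost with limma on log2(FPKM + 1) (adjusted p = 0.260) and with limma on log2(FPKM + 0.1) (adjusted p = 0.180). Mir17hg, the host of the miR-17-92 cluster, was at 0.246, 0.373, 0.476 and 0.199 CPM in Control and 0.855, 1.60, 6.98 and 2.33 CPM in Acacetin (log2 fold change 3.19, SE 0.59, adjusted p = 0.00173), with 2.31 without Acacetin 3 (adjusted p = 0.00159), 0.68 on log2(FPKM + 1) and 2.02 on log2(FPKM + 0.1). Lockd, by contrast, was highest in Acacetin 1, at 9.74, 9.79, 11.5 and 9.89 CPM in Control and 25.9, 20.2, 14.8 and 16.4 CPM in Acacetin (log2 fold change 0.92, SE 0.18, adjusted p = 0.00256).

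**Figure D5:**
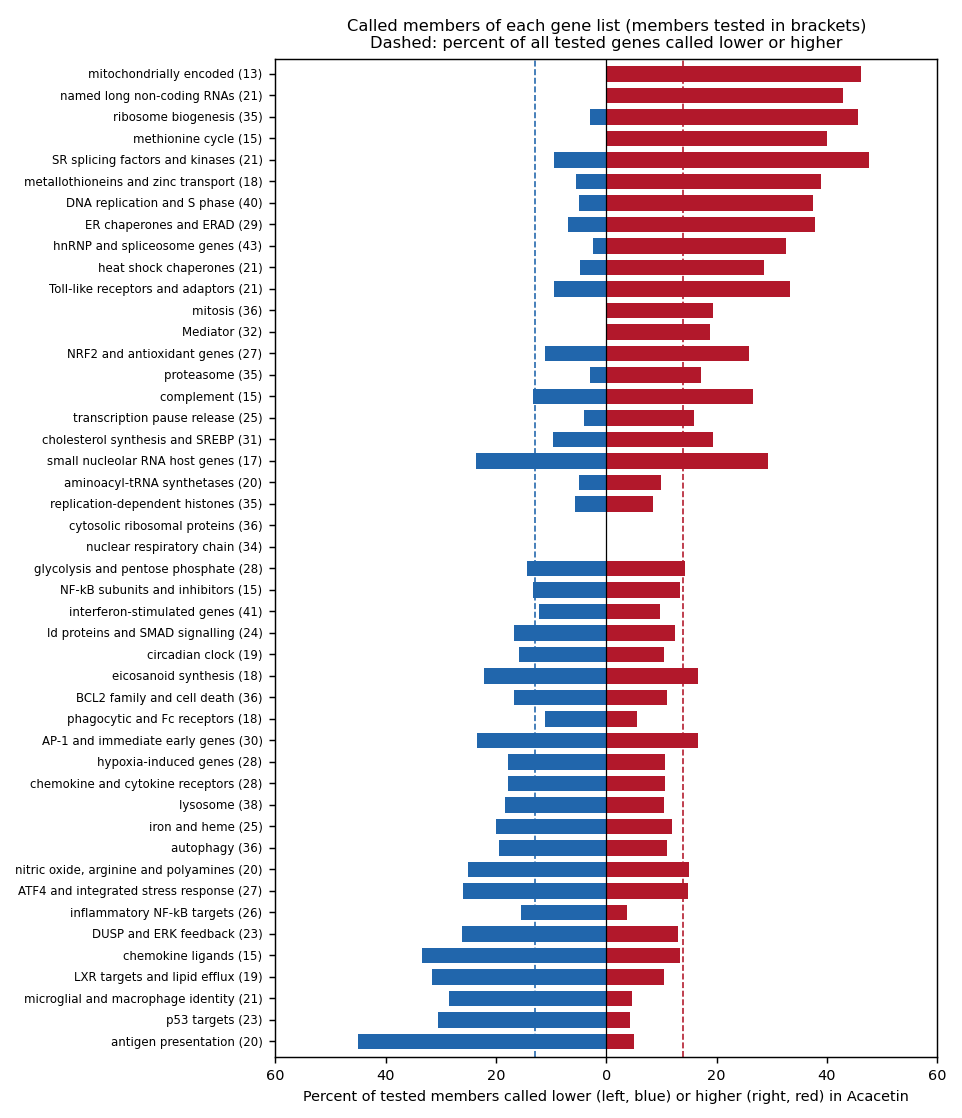
Percent of the tested members of each of 46 gene lists called lower (blue, to the left) or higher (red, to the right) in Acacetin against Control, with the number tested in brackets. Dashed lines mark the 12.9% lower and 14% higher of all tested genes; mitochondrially encoded, ribosome biogenesis and SR genes reach past the line on the right, and antigen presentation genes past it on the left.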

How the data were processed

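Stranded mRNA libraries of BV2 cells were made with a kit and sequenced as paired reads on an Illumina instrument, per the labels' protocols. The authors deposited a table of whole-number read counts per gene and a table of FPKM values, each with 12 library columns. Per the submitters' processing notes, the build was GRCm39 and the tools included HISAT2, bcl2fastq and DESeq2. The counter, annotation and strand setting are not given in the sources used here. Counts were tested with edgeR 4.0.16 (R 4.3.3): filterByExpr (minimum count 10, minimum total 15) left 13249 genes, scaling was TMM, and a quasi-likelihood model of all 3 groups with 4 libraries each gave Acacetin against Control, with Benjamini-Hochberg adjustment over all tested genes and a threshold of 0.05. The 12 libraries share 1 estimate of spread. All p-values are 2-sided. Total counts were 24734868 to 32693066 in the 8 libraries compared, and their precision covers counting error only.

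The libraries and the 46 lists were chosen with earlier results of these data known. Genes named were the 8 largest rises and the 8 largest falls that were called, averaged 2 CPM or more, had groups without overlap and did not carry a model, clone or Rik symbol. To these were added up to 4 called members of each list with the smallest p, the 3 largest lncRNA rises and falls, and a set list of 15 genes. Any other gene is said to be chosen after its values were seen, or is named as a cell marker. Not every gene that the rule admits is described.

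The alternatives were DESeq2 1.42.0, its size factors in edgeR, other low-count filters, a 2-fold minimum, fits of fewer libraries, the replicate number as a block, removal of the trend on gene length by lowess (span 0.5) and limma 3.58.1 on log2(FPKM + 1) or log2(FPKM + 0.1). The correlation of same-numbered deviations was 0.371, -0.069, -0.291 and 0.402 for numbers 1 to 4. The best correlation with another number was 0.199, 0.055, 0.298 and 0.563. These values do not settle whether the replicate numbers pair the libraries, and the main test used no pairing. The edgeR code was tested on simulated counts. Promoter sequences came from RefSeq (GRCm38.p6) and were matched by symbol, a build other than that of the counts.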

Additional observations from a re-analysis of the deposited data

Results flagged for a closer look

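Among the described genes and library properties, 19 groups of 4 libraries had 1 library far from the other 3 by Dixon's test at its 95% critical value. Chance alone flags about 1 in 20 groups, and 400 groups were tested.

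In Acacetin 1, Slc16a1 was at 39.5 CPM against 81.9 to 84.2 in the other 3 libraries, Slc7a1 at 32.7 against 53.5 to 54.4, and Mettl16 at 36.5 against 56.2 to 59.8. In the same library Apoc2 was at 14.9 CPM against 6.32 to 7.69. In Acacetin 3, Kcnq1ot1 was at 28.6 CPM against 0.285 to 3.23, and Gpt2 at 13.8 against 19.4 to 19.6. In Acacetin 2, Polr1b was at 112 CPM against 81.4 to 85.3, and Srxn1 at 76.2 against 49.3 to 52.4.

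In Control 3, Isg15 was at 59.4 CPM against 35.4 to 38.6, Dnajb11 at 50.9 against 42.0 to 43.3, Hyou1 at 108 against 103.8 to 104.4, and Lockd at 11.5 against 9.74 to 9.89. In Control 1, Paox was at 62.9 CPM against 53.1 to 54.3, Pdlim4 at 4.83 against 3.85 to 3.97, and Slc39a14 at 26.4 against 21.5 to 22.3. In Control 4, Il6 was at 2.55 CPM against 1.92 to 1.99, Slc30a1 at 5.24 against 3.85 to 3.93, and Zfp13 at 5.94 against 4.27 to 4.48. In Control 2, mitochondrially encoded genes took 0.377% of reads against 0.490% to 0.514%.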

How the results depend on the processing

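Of the 187 named genes that were called, 143 kept the call under every alternative that gave the gene a value (a 2-fold minimum was not applied to single genes), 44 lost it under at least 1, and 0 changed sign. The count of called genes, 3559, was 1441 (676 higher, 765 lower) with a 2-fold minimum, a stricter call by construction. Leaving out 1 library gave 2373 to 5818 called genes, 1164 to 3030 higher and 1198 to 2788 lower; the highest were without Acacetin 1, the lowest totals and rises without Control 2 and the lowest falls without Acacetin 2; the cause was not tested. With limma, 1063 genes were lower on log2(FPKM + 1) and 965 on log2(FPKM + 0.1); the cause was not tested. The replicate block called 4279 genes, 3479 of them called without it, and 5013 with the length trend removed as well. A fit of only the 8 libraries compared, without the OGD group, gave 2841 called genes (1405 higher, 1436 lower). Of these, 2809 were called in the main fit. The other settings gave 3249 to 4406 called genes, not counting limma at 2436 and 2410.

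Signs reversed only for Il1b, Il6 and Isg15, which were not called under the main test; the cause was not tested. Il1b, at -0.01, was 0.0159 with no filter, 9.43e-05 with only the 8 libraries, 0.0262 with the replicate block, 0.138 with block and length trend, 0.113 with the length trend removed, 0.151 and 0.173 on the 2 FPKM scales and 0.0450 without OGD 2 and 3. Without 1 library it ran from -0.129 (Control 1) to 0.217 (Control 3). Il6, at 0.14, ran from -0.12 without Acacetin 3 to 0.38 without Acacetin 1. Isg15, at -0.02, was 0.199 with block and length trend, 0.176 with the length trend removed, 0.1001 and 0.102 on the FPKM scales, 0.0136 without OGD 2 and 3, and from -0.251 (Acacetin 1) to 0.184 (Control 3) without 1 library.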
